A study of Mus musculus with 2 samples.

Results

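Neutrophils of mouse bone marrow were cultured with PBS or with exosomes of cancer stem cells, and 8 genes stood at much higher levels in the exosome-treated cells: Tifab, Slc32a1, Wfdc17, Rassf4, Cd302, Mink1, Lacc1 and Cd48. These 8 were picked from the 35522 features of both expression tables because their ratio of exosome to PBS expression was very large, as strongly induced genes outside the well-known families. Several do belong to families, such as the RASSF, MAP4K, SLAM and WAP genes, and these relatives are described with them. The ratio itself is therefore a description and not a finding, and no test was applied to it. The neutrophils were sorted from Balb/C mice, purchased at 5 to 8 weeks of age, as cells positive for CD11b, high for Ly6G and low to negative for Ly6C, with a stated purity above 80%. Both cultures received 10 ng/ml GM-CSF, a growth factor that keeps myeloid cells alive, for 3 days. One culture received PBS and the other (labelled ELV-treated) received 20 μg/ml tumor exosomes, vesicles released by CT26 colon carcinoma cells that had been expanded as spheres in stem cell medium. Each treatment was measured in 1 library, so no spread between cultures or animals can be given, and whether animals were pooled is not stated.

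The products of the 8 genes work in different places in the cell. Tifab, Mink1 and Rassf4 encode proteins of intracellular signalling: an inhibitor of the TIFA and TRAF6 route to NF-κB, a kinase above the JNK cascade, and a partner of the Hippo kinases. Cd302 and Cd48 encode surface receptors of leukocytes, Wfdc17 a small secreted protein of activated macrophages and microglia, and Lacc1 an enzyme of purine nucleosides in macrophages. Slc32a1 encodes the transporter that loads the inhibitory transmitters GABA and glycine into synaptic vesicles, and is known from neurons rather than leukocytes.

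Expression was given as RPKM, the reads of a gene scaled by the length of its exons and by the mapped reads of the library, so that levels of different genes can be compared per length. From values that stand for single reads the depth was estimated at 66000000 mapped reads for PBS and 79100000 for the exosome library. Genes were kept from 0.25 RPKM upward in each library. Kept genes were called up from a 2-fold higher value and down from a 2-fold lower one. Of 9698 genes kept, 31.5% were called up and 5.62% down. The median log2 ratio was 0.53, and once this shift was removed by median centring the calls went from 3056 up and 545 down to 1634 up and 1282 down. A ratio of at least 20, a limit taken after the values were seen, was reached by 20 genes, which is 0.206% of those kept. All 8 genes passed the filter and lay above 20, which their choice had fixed.

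The RPKM of Tifab was 0.65 in PBS and 138 with exosomes. This ratio of 213 (95% counting interval 181 to 252) was the highest of all genes kept. Slc32a1 had 0.25 RPKM in PBS and 13.1 in the exosome library, a ratio of 52.4 (39.2 to 71.7). Its PBS value equalled the filter, and it was the lowest of the 8 genes in both libraries. Wfdc17 had 3.85 RPKM in PBS and 177 with exosomes, a ratio of 46.0 (38.8 to 54.9), and was the most abundant of the 8 in both libraries. Rassf4 had 2.22 and 82.7 RPKM, a ratio of 37.3 (34.9 to 39.8). The other 4 genes lay close together in their ratios, with counting intervals that overlapped one another. Cd302 had 2.93 RPKM in PBS and 82.4 with exosomes, a ratio of 28.1 (24.9 to 31.9). Mink1 had 0.79 and 22.1 RPKM, a ratio of 28.0 (24.7 to 31.8). Lacc1 had 0.58 and 15.7 RPKM, a ratio of 27.0 (22.0 to 33.6). Cd48 closed the list with 3.22 and 80.9 RPKM, a ratio of 25.1 (22.2 to 28.6). The intervals rest on reads estimated with the longest annotated transcript, and they cover counting error alone. In PBS the 8 genes had between 46.1 (Slc32a1) and 946 (Rassf4) such reads. With a pseudocount of 1 RPKM added to both values the ratios of the genes low in PBS were much smaller, at 84.4 for Tifab, 12.9 for Mink1, 11.3 for Slc32a1 and 10.6 for Lacc1, and Slc32a1 then held the second lowest place of the 8.

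**Figure D1:**
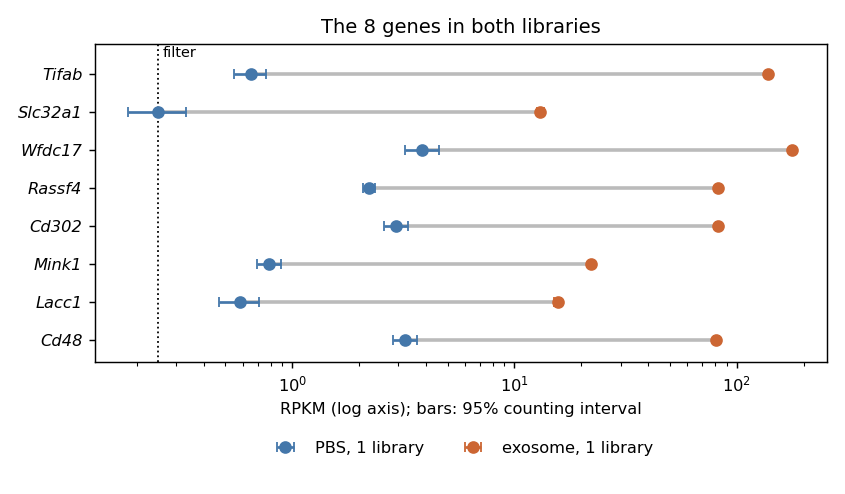
RPKM (log axis) of the 8 genes in the PBS library (blue) and the exosome library (orange), 1 library each; bars are 95% counting intervals and the dotted line is the filter of 0.25 RPKM. PBS values lie between 0.25 and 3.85 RPKM and exosome values between 13.1 and 177 RPKM.

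In PBS all 8 genes lay below 5.28 RPKM, the median of the genes kept. In exosome-treated neutrophils all 8 lay above the median of 8.5 RPKM, and Wfdc17 ranked 248th and Tifab 343rd of all features. Tifab stood above 12.4% of the genes kept in PBS and above 96.5% with exosomes. Slc32a1 moved from the bottom of the genes kept to above 61.7% of them, the lowest final place of the 8. Together the 8 genes summed to 14.5 RPKM in PBS and to 612 with exosomes. Among the genes kept, those low in PBS had higher ratios. The selection itself favours this, because the PBS level is the denominator of the ratio. Genes low in PBS that fell under 0.25 RPKM with exosomes were also not kept. The 4209 genes kept with a PBS level from 0.25 to 3.85 RPKM had a median ratio of 2.07, against 1.44 over all genes kept, and 17 of them (0.404%) reached a ratio of 20.

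**Figure D2:**
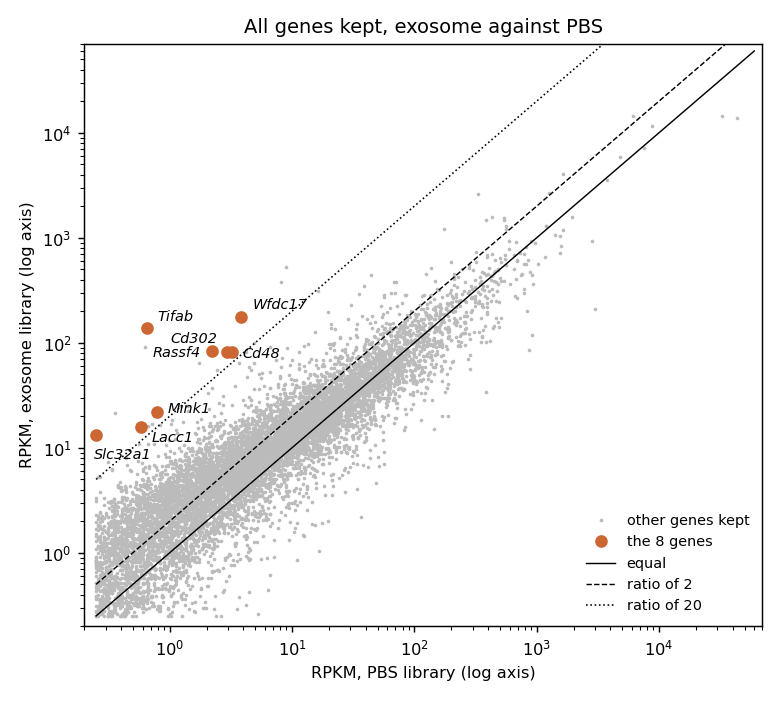
RPKM in the exosome library against RPKM in the PBS library for the 9698 genes kept (grey points, log axes), with the 8 genes in orange and lines at ratios of 1, 2 and 20. The 8 genes lie above the ratio of 20 at PBS levels of at most 3.85 RPKM.

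The 8 genes held the ranks 1, 5, 7, 8, 10, 11, 12 and 14 in the order of ratios. The other 6 genes down to rank 14 were C3ar1, which encodes the receptor of complement fragment C3a, Ly6i, Clec4a3, Clec4a1, Apoc2 and the inhibitory receptor gene Lair1. Just inside the end of the list, Lair1 stood at a ratio of 26.5 and Cd48 at 25.1. Just outside it came Abca1, a cholesterol exporter gene, with 0.67 and 16.1 RPKM and a ratio of 24.0, and then Filip1l with a ratio of 23.6. The filter on low values also drew an edge. Sh2d1b1, at 0.24 RPKM in PBS, was left out, whereas Slc32a1, at 0.25, was kept. Sh2d1b1, Gm266 and Emr4 were the 3 features under the filter in PBS with an exosome level of at least that of Slc32a1 and a ratio of at least that of Cd48. Gm266 had 0.19 RPKM in PBS and 24.1 with exosomes, and Emr4 had 0.11 and 20.6. These 3 were singled out after their values were seen.

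Distance was measured in the plane of both log2 RPKM values, and the chosen genes themselves were left out of the search. The nearest gene outside the chosen set was C3ar1 for Tifab, Ly6i for Slc32a1, Zdhhc6 for Wfdc17 and Apoc2 for Rassf4. It was Lair1 for Mink1, Abca1 for Lacc1, and LOC100861753 for both Cd302 and Cd48. The closest of these pairs was Mink1 and Lair1, which lay 0.17 log2 units apart. Lair1 had 0.75 RPKM in PBS and 19.9 with exosomes. Within 1 log2 unit, 13 genes outside the chosen set lay near Mink1 and near Lacc1. A single such gene lay as near to Tifab and to Wfdc17. This likeness rests on 2 libraries.

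The promoters of the 8 genes were read from the RefSeq set for GRCm38.p6, from 250 bases before to 50 bases after 1 annotated start per gene. In Tifab, Slc32a1, Mink1, Lacc1 and Cd48 this start lay inside the locus whose ends are given below. That of Slc32a1 was at 158610758, whereas its locus begins at 158607260. Other starts of these genes were not read. They differed widely in CpG dinucleotides, which are sparse in most tissue-restricted promoters and dense in those of broadly expressed genes. The 300-base windows held 1 CpG in Wfdc17, 2 in Tifab, 3 in Cd302, 7 in Cd48, 15 in Rassf4, 17 in Slc32a1, 39 in Mink1 and 45 in Lacc1. The median was 11 for the 8 genes and 13 for 17492 protein-coding promoters. The window of Wfdc17 held more CpG than 5.20% of these promoters and that of Lacc1 more than 97.6%, so the 8 genes shared no promoter class by this measure. The poorest pair, Wfdc17 (chr11:83703806-83704105, plus strand) and Tifab (chr13:56178836-56179135, minus strand), and the richest pair, Mink1 (chr11:70562631-70562930, plus strand) and Lacc1 (chr14:77036568-77036867, minus strand), are shown to set these ends side by side, 5′ to 3′ on the strand of the gene with each CpG in capitals.
Wfdc17: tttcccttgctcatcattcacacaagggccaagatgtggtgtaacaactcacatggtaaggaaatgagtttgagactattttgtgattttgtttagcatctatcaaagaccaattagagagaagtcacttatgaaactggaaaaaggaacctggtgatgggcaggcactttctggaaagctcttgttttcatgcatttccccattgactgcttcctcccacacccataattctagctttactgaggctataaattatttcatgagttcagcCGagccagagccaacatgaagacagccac
Tifab: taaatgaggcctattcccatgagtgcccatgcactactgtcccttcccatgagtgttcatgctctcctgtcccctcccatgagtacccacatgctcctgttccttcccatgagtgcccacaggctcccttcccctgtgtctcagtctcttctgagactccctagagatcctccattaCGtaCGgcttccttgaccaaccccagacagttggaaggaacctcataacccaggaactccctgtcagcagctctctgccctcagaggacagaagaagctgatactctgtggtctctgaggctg
Mink1: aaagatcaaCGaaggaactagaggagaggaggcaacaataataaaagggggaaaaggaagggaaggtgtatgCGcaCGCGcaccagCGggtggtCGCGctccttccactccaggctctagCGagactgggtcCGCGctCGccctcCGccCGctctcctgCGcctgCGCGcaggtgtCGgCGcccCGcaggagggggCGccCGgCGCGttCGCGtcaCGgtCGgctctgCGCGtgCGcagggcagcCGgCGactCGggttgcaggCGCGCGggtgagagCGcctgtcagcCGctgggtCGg
Lacc1: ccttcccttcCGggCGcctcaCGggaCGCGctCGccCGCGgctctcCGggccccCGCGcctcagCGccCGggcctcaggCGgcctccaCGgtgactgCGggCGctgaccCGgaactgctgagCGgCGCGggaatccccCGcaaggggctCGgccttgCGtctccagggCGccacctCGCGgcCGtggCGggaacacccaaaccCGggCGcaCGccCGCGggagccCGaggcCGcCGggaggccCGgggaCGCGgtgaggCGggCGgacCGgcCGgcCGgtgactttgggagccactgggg

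6 short motifs were searched on both strands of these windows, overlaps allowed. GAGGAA, a core bound by Ets factors such as PU.1, was found in 1 of 8 windows, that of Wfdc17, against 27.5% of all promoters. TATAAA was also found in Wfdc17 alone among the 8, against 13.3% of all. Its first base there lay at -3 from the annotated start, so the match spanned that start. The letters TGANTCA of AP-1 sites (7.08% of all promoters) and TTNNGNAAT of C/EBP sites (10.5%), and simplified NF-κB (1.56%) and interferon response (3.40%) patterns, were in 0 of the 8 windows. These are matches of letters and say nothing about binding.

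Each gene was next set beside relatives that the choice had not used, 117 genes of the same families and pathways. All 117 were matched in the tables and 71 passed the filter. Of these 71, 17 (23.9%) were called up and 2 were called down, against the 31.5% and 5.62% of all genes kept, so the share called up was not above the background. A ratio of at least 4 was found in 7 of the 71 (9.86%), against 8.52% of all genes kept, and a ratio of at least 20 in 0. Sh2d1b1 fell outside this count because it missed the filter by its PBS value of 0.24 RPKM. With the filter applied to either library and a pseudocount of 0.25, a setting added for this count after the values were seen, 78 relatives were kept and 1, Sh2d1b1, lay above 20 at a ratio of 53.9. The median log2 ratio was 0.33 for the relatives, below the 0.53 of all genes kept, and turned to -0.19 under median centring. The same centring left 11 relatives called up and 9 down, and those no longer called up were Map3k7, Wwtr1, Slamf7, Map4k3, Pnp2 and Mtap.

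Tifab (chromosome 13, 56173703 to 56179002, minus strand) stood beside 14 genes of the TIFA and TRAF6 route, all kept, of which 3 were called up and 0 down. TIFA is an adaptor that joins into large assemblies and activates the ubiquitin ligase TRAF6, and TIFAB binds TIFA and holds this back. Tifa had 4.91 RPKM in PBS and 36.4 with exosomes, a ratio of 7.41. In PBS Tifa was the more abundant of the pair per length, while in exosome-treated cells Tifab made up 79.2% of their summed RPKM. Alpk1, the kinase that senses a bacterial sugar nucleotide and phosphorylates TIFA, had 5.64 and 51.6 RPKM, a ratio of 9.14. Map3k7, which encodes the kinase TAK1, had a ratio of 2.53. Traf6 itself had 8.82 RPKM in PBS and 7.35 with exosomes, a ratio of 0.833. Genes that act above TRAF6 in Toll-like receptor signalling stayed within 2-fold, with ratios of 1.11 for Myd88 and 1.09 for Irak4. Irak1 came closest to the limit, with a ratio of 1.90 (counting interval 1.83 to 1.97).

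Mink1 (chromosome 11, 70561580 to 70614482, plus strand) encodes a MAP4K kinase and was compared with 20 genes of this kinase family, the JNK cascade and the STRIPAK complex that holds such kinases. Of the 16 kept, 2 were called up and 0 down. Map4k5 had 1.71 RPKM in PBS and 9.18 with exosomes, a ratio of 5.37. Map4k3 followed with a ratio of 2.37. The paralog Map4k4 had 19.8 and 26.5 RPKM, a ratio of 1.34, while a further paralog, Tnik, was under the filter, with 0.18 and 0.09 RPKM. Map4k2 was the highest of the 8 MAP4K genes in both libraries, with 150 RPKM in PBS and 102 with exosomes. Mink1 moved from the fifth to the third place among these 8 genes and from 0.445% to 13.4% of their summed RPKM. Downstream, Map2k4 had a ratio of 0.502 and Map2k7 a ratio of 1.83, both within 2-fold. The counting interval of Map2k4, 0.486 to 0.519, includes the limit of 0.5. Under median centring, read for this list after its values were seen, 1 of the 16 was up and 3 were down.

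Rassf4 (chromosome 6, 116633008 to 116673836, minus strand) encodes a Ras-association domain protein, whose family binds the Hippo kinases MST1 and MST2. Of 18 relatives, 13 were kept, 2 were called up and 0 down. In PBS the family was headed by Rassf3 with 148 RPKM, followed by Rassf2 with 62.2 and Rassf5 with 55.5. With exosomes these stood at 76.8, 70.3 and 53.4 RPKM, and Rassf4 at 82.7 RPKM was the highest of the 10 RASSF genes, up from the fifth place. Its share of their summed RPKM went from 0.793% to 27.9%. The summed RPKM of the other 9 genes was 278 in PBS and 214 with exosomes. Rassf6 had 1.24 RPKM in PBS and 0.03 with exosomes and so failed the filter. Stk3, which encodes MST2, had 0.59 and 1.78 RPKM, a ratio of 3.02, and Wwtr1, a transcriptional coactivator under Hippo control, had a ratio of 2.27. Stk4, which encodes MST1, was far more abundant and lay at 72.0 and 67.7 RPKM.

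**Figure D3:**
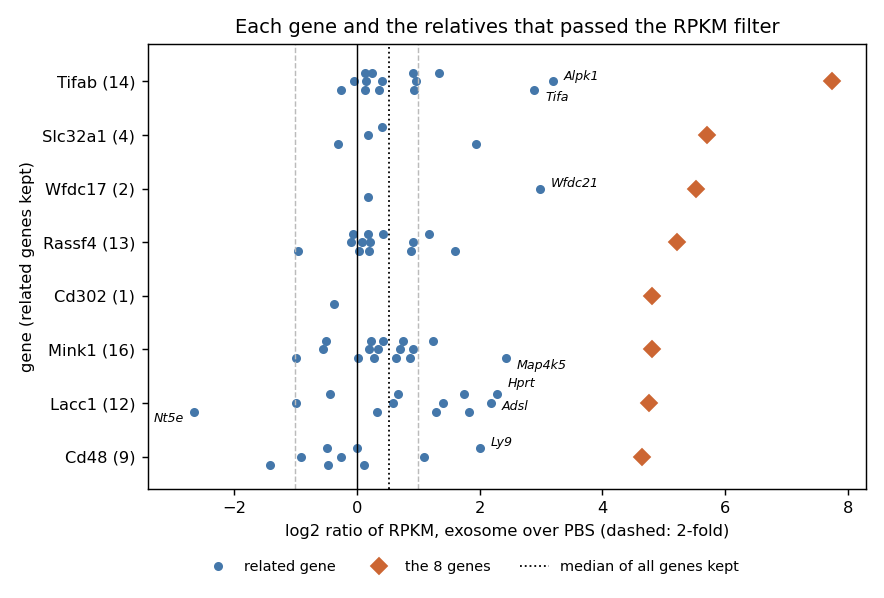
Log2 ratio of RPKM, exosome over PBS, for the 8 genes (orange diamonds) and for the 71 related genes that passed the filter (blue points; their number stands behind each name; names mark related genes with at least 4-fold change). The dotted line is the median of all genes kept, 0.53, and the highest related gene is Alpk1 with a ratio of 9.14.

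Cd48 (chromosome 1, 171681245 to 171705258, plus strand) encodes a lipid-anchored SLAM receptor that binds CD244, and in mice also CD2. Of its 13 relatives, 9 were kept, 2 were called up and 1 down. Cd84 was the highest SLAM gene in PBS with 114 RPKM and stood at 43.1 with exosomes, a ratio of 0.378. Cd48 took its place, from 2.62% to 60.1% of the summed RPKM of 9 SLAM receptor genes. Ly9 had 1.57 RPKM in PBS and 6.32 with exosomes, a ratio of 4.03, and Slamf7 had a ratio of 2.13 (counting interval 1.75 to 2.59, which includes the limit of 2). The receptor gene Cd244 lay at 1.03 and 1.12 RPKM and Cd2 at 1.63 and 1.18. Sh2d1b1, which encodes the SLAM adaptor EAT-2, had 0.24 RPKM in PBS and 26.2 with exosomes, a ratio of 109 on an estimated 40.3 PBS reads. The adaptor gene Sh2d1a was listed at 0 in both libraries.

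Cd302 (chromosome 2, 60251993 to 60284484, minus strand) encodes a C-type lectin receptor related to the mannose receptor family and linked to endocytosis and cell migration. It was the highest of these 5 genes in both libraries and made up 97.4% of their summed RPKM after exosome treatment. Of its 4 relatives, Ly75 alone was kept, at 2.27 RPKM in PBS and 1.76 with exosomes. Mrc1, which encodes the mannose receptor of macrophages, had 0.04 and 0.38 RPKM. Mrc2 had 0.09 and 0.02 RPKM, and Pla2r1 was listed at 0 in PBS.

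Wfdc17 (chromosome 11, 83704056 to 83706269, plus strand) is a small gene of 3 exons for a protein with a WAP domain, a fold found in protease inhibitors of mucosal and leukocyte secretions. Of 18 WAP genes beside it, 2 were kept and 10 were listed at 0 in both libraries. Slpi, the secretory leukocyte protease inhibitor, had 398 RPKM in PBS and 450 with exosomes, a ratio of 1.13. Wfdc21, listed under its older name 1100001G20Rik, had 333 and 2633 RPKM, a ratio of 7.90. Wfdc18 was listed at 0 in PBS and had 0.42 RPKM with exosomes. Wfdc17 was the third most abundant WAP gene in both libraries, behind Slpi and Wfdc21.

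Lacc1 (chromosome 14, 77021739 to 77036929, minus strand) encodes FAMIN, an enzyme that acts on purine nucleosides and combines reactions otherwise carried out by adenosine deaminase, purine nucleoside phosphorylase and methylthioadenosine phosphorylase. Of 14 genes of purine nucleoside metabolism, 12 were kept, 6 of these were called up and 1 down, against the 31.5% and 5.62% of all genes kept. Their median log2 ratio was 0.98, against 0.53 over all genes. Under median centring, applied to this list after its values were seen, 4 were up and 2 down, with a median of 0.46. Pnp had 3.16 RPKM in PBS and 11.2 with exosomes, a ratio of 3.55, and Mtap had 0.25 and 0.66, a ratio of 2.64. Ada, with 0.08 and 0.27 RPKM, was under the filter in PBS. The salvage enzyme gene Hprt had 14.3 and 69.3 RPKM, a ratio of 4.86. Adsl, of purine synthesis, had a ratio of 4.54. Nt5e, which encodes the ecto-enzyme CD73 that makes adenosine, had 50.8 RPKM in PBS and 8.12 with exosomes, a log2 ratio of -2.65. The most abundant gene of the list in both libraries, Gda, had 238 and 120 RPKM.

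Slc32a1 (chromosome 2, 158607260 to 158615747, plus strand) stood among genes that were mostly silent here. Of 16 genes of GABA handling and of vesicular amino acid and monoamine transport, 4 were kept and 6 were listed at 0 in both libraries. Gad1, which encodes an enzyme that makes GABA, had 0.05 RPKM in PBS and 0.01 with exosomes, and Gad2 was listed at 0 in both. Slc6a12, a betaine and GABA transporter gene, had 2.55 and 9.85 RPKM, a ratio of 3.86. Among the neuronal marker genes Snap25, Syt1 and Rbfox3 were listed at 0 in both libraries, and Syp had 6.58 RPKM in PBS and 0.61 with exosomes. Gm14204, a long noncoding RNA gene on the opposite strand that overlaps Slc32a1, was listed at 0 in both libraries.

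Position along the chromosome was also not used in the choice. The 2 protein-coding genes on each side of each locus gave 32 neighbours, of which 30 were listed and 13 passed the filter. Of these 13, 7 were called up and 0 down, against the 31.5% and 5.62% of all genes kept, and 0 reached a ratio of 20. Under median centring, also applied here after the values were seen, 4 were up and 1 down, and Ccl3, Slamf7 and Tma7-ps were the 3 no longer up. Tma7-ps, beside Cd48, has the name of a pseudogene but is annotated by RefSeq as protein-coding. The highest was Wfdc21, 40670 bases from Wfdc17, with a ratio of 7.90. On the other side of Wfdc17 lay the chemokine genes Ccl4, at 119 and 107 RPKM, and Ccl3, at 320 and 726 RPKM. Around Cd48 the SLAM genes Ly9 and Slamf7 were called up and Slamf1, with 0.60 and 0.32 RPKM, stayed within 2-fold. Ly75, 7618 bases from Cd302 and on the same strand, had the ratio of 0.775 given above. Next to Slc32a1, Actr5 had 3.66 and 7.2 RPKM, a ratio of 1.97. Beside Tifab, Macroh2a1, listed as H2afy, had 15.6 and 68.9 RPKM, a ratio of 4.41. Zfp422 beside Rassf4 had a ratio of 3.34, and Tsc22d1 beside Lacc1 had a ratio of 1.38. The immediate neighbours of Mink1 were under the filter, with 0.06 and 0.46 RPKM for Pld2 and 0.02 RPKM in both libraries for Chrne.

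Ccdc122 was the neighbour most like its member. It lies on the opposite strand from Lacc1 with 154 bases between its start and the Lacc1 start used above, so that both start within the CpG-rich window printed earlier. Ccdc122 had 0.03 RPKM in PBS and 0.87 with exosomes, an estimated 3.41 and 118 reads. With so few PBS reads the ratio of 29.0 has a counting interval of 10.3 to 125, and the gene was under the filter. The annotated spans of both genes overlap, and whether strand was used in counting is not stated, so reads from the shared stretch cannot be assigned with certainty.

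**Figure D4:**
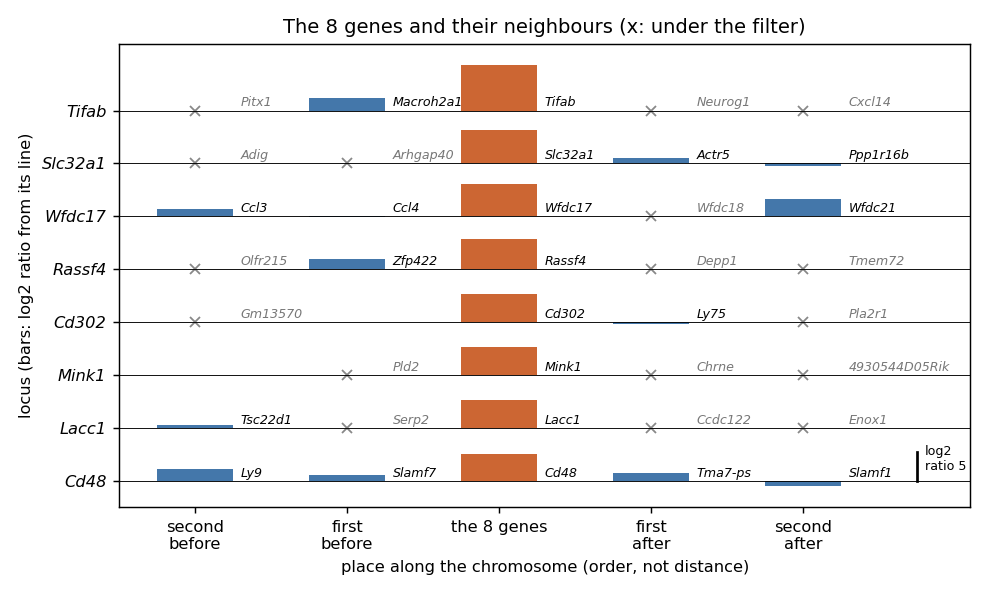
Log2 ratio of RPKM, exosome over PBS, of the 8 genes (orange bars) and of the 2 protein-coding genes on each side (blue bars), in chromosomal order, with a scale bar of 5 log2 units; a cross marks a gene under the filter of 0.25 RPKM and a blank a gene not matched. The highest neighbour above the filter is Wfdc21 with a ratio of 7.90; the 8 genes were chosen by the ratio plotted.

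Marker genes of the cells the cultures could hold were summed beside these results. Over all genes kept, 31.5% were called up and 5.62% down. Of 14 neutrophil markers, all were kept, 0 were called up and 11 were called down. Their summed RPKM was 84181 in PBS and 30288 with exosomes. Most of it was S100a8, with 32823 and 14382 RPKM, and S100a9, with 43059 and 13834. Ly6g, which encodes 1 of the sorting markers, had 287 and 56.2 RPKM. The 3 neutrophil markers within 2-fold were all higher with exosomes. Itgam, which encodes the sorting marker CD11b, had 313 and 393 RPKM, Mpo 5.48 and 8.42, and Elane 2.64 and 3.31. Of 16 monocyte and macrophage markers, 10 were kept, 6 of which were called up and 1 down, and the summed RPKM was 570 and 1067. Of the 16, 15 were higher in the exosome library and 1 was lower, the monocyte gene Ly6c2 with 184 and 37.1 RPKM. Higher here means any ratio above 1, and the median gene kept was also higher, with a log2 ratio of 0.53. The 6 called up were the F4/80 gene, listed as Emr1, with 20.9 and 152 RPKM, Apoe with 28.6 and 169, Csf1r with 58.1 and 153, Lyz1 with 74.6 and 189, and the complement genes C1qb with 0.30 and 2.30 and C1qc with 0.27 and 3.79. Under median centring 4 of the 10 were up. Cd14 had 118 and 209 RPKM and Cd68 had 83.9 and 146, both within 2-fold. The 6 markers under the filter, Mertk and Mrc1 among them, were all higher with exosomes and reached at most 1.42 RPKM. No marker of this list was at 0 in either library.

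The remaining markers were lower with exosomes or near 0. Of 10 dendritic cell markers, 5 were kept, 0 were called up and 1 down, and the sum was 115 and 76.4 RPKM. The 5 B cell markers summed to 108 and 66.9 RPKM, all within 2-fold as reported and all 5 called down under median centring, and the 9 T and NK cell markers to 59.0 and 8.90, most of it Cd3d. The NK cell gene Klrb1c was under the filter with 0.01 and 0.51 RPKM. Eosinophil markers summed to 10.6 and 5.29 RPKM, mast cell and basophil markers to 2.02 and 2.18, erythroid markers to 2.04 and 0.345, epithelial markers to 0.590 and 0.205, and neuronal markers to 6.64 and 0.627. The part of these cells in the levels of the 8 genes was not tested. In such bulk samples fewer cells of a type and less RNA per cell cannot be told apart.

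**Figure D5:**
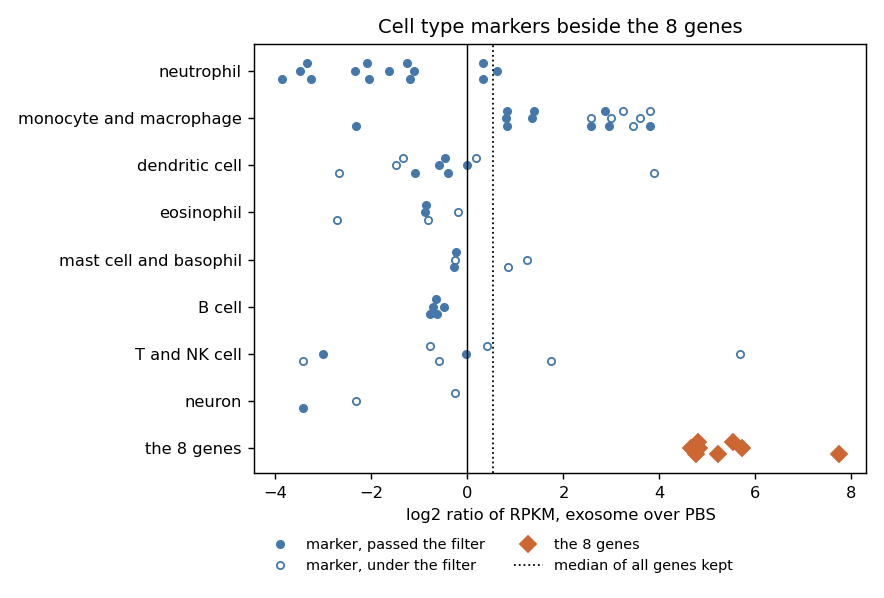
Log2 ratio of RPKM, exosome over PBS, of cell type markers with a value above 0 in both libraries (blue; open circles were under the filter of 0.25 RPKM) and of the 8 genes (orange diamonds); the dotted line is the median of all genes kept, 0.53. Of the neutrophil markers 11 of 14 were called down, against 5.62% of all genes kept. Of the monocyte and macrophage markers 15 of 16 had a ratio above 1, as did the median gene kept. The 8 genes were chosen by the ratio plotted. The open circle farthest to the right is the NK cell gene Klrb1c, at 0.01 and 0.51 RPKM.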

How the data were processed

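Reads of TruSeq mRNA libraries (HiSeq 2500) were trimmed at a Phred score of 20 by the authors, who computed RPKM in CLC Genomics Workbench v8.0 and deposited 1 RPKM value per feature and library; per the labels the build was mm10. The annotation, the handling of reads that match several genes and the use of strand are not given in the sources used here. Values above 0.01 RPKM were rounded to 0.01. Ratios carry no pseudocount.

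Depth was the commonest value of 1 read divided by RPKM and length among features under 0.01 RPKM, which was shared, within 0.5% either side, by 225 of 918 features in PBS and 270 of 1064 in the exosome library. Lengths were those of the longest GENCODE M21 transcript. Ratio intervals are exact Clopper-Pearson intervals (95%) of the estimated reads. With 1 library per group no test was run. Positions and promoters are of RefSeq (GRCm38.p6, the assembly called mm10). Python 3.11.15, pandas 2.3.3 and scipy 1.17.1 were used. The procedure was checked on reads simulated with these same lengths, which cannot show errors that come from wrong lengths.

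The 8 genes, the lists of relatives and the markers were chosen with earlier results of these data known. Named were the 8 genes, relatives with at least 4-fold change, their closest paralogs or partners, and chromosomal neighbours. Also named were the 2 genes on each side of the lowest member in the order of ratios. For each of the 8, the gene outside the 8 with the nearest pair of levels was named. Alternatives were median centring, a trimmed mean of log ratios, TPM, pseudocounts of 0.25 and 1, other filters, a ratio of 4 and the shortest transcript.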

Additional observations from a re-analysis of the deposited data

How the results depend on the processing

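Each of the 8 genes kept a ratio above 2 under every alternative that retained it, and 0 of 52 recomputed log2 ratios changed sign. Both follow from the choice of these genes for very large ratios. Of the 52 log2 ratios, 18 stayed within the counting interval and 34 left it. The lowest was 3.40 (Lacc1, pseudocount of 1) and the highest 7.78 (Tifab, rescaled to TPM). The median log2 ratio of the 8, 5.02 as reported, was 4.49 under median centring, 4.47 after subtracting a trimmed mean, 4.72 with a pseudocount of 0.25 under either filter, and 4.34 with a pseudocount of 1. An RPKM of at least 1 in both libraries kept 4 of the 8 genes, and those 4 were called up. For all genes kept, the number called up went from 3056 to 1634 under median centring, 1594 with the trimmed mean, 1976 with a pseudocount of 1, 1958 at an RPKM of at least 1 and 826 for a limit of 4-fold. The number down went from 545 to 1282, 1322 and 111 under median centring, the trimmed mean and a ratio of at most 0.25. The median log2 ratio of all genes was 0 under median centring and -0.015 with the trimmed mean, which are so by construction, 0.58 for TPM, 0.49 and 0.41 with pseudocounts of 0.25 and 1, and 0.45 at an RPKM of at least 1. Of the relatives, 17 as reported, 11 were up under both centrings and at an RPKM of at least 1, 10 with a pseudocount of 1 and 7 for a limit of 4-fold, while those down were 9, 10 and 1 under median centring, the trimmed mean and a ratio of at most 0.25, against 2. Their median log2 ratio became -0.19 and -0.21 under the centrings. With the shortest annotated transcript as length, the fewest PBS reads were 27.8, for Lacc1, in place of 46.1, for Slc32a1. Lacc1 had 93.5 with its longest transcript, whereas Slc32a1 has 1 annotated transcript and was unchanged. The longest and shortest transcripts were 6460 and 303 bases for Rassf4 and 4994 and 635 for Mink1. The reads and intervals of these genes therefore depend on the length taken. No paired analysis was possible because each group holds 1 library. The RPKM of Slc32a1 in PBS, 0.25 after rounding, allows ratios from 51.3 to 53.4 by rounding alone.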
